A study of Mus musculus with 6 samples.

Results

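The mitochondrial genome of the mouse was represented by 37 of the 54532 genes in the count table, chosen as every gene that the table places on chromosome MT: 22 tRNA genes, 2 rRNA genes and 13 protein genes. The rule for membership is position alone, although the mitochondrial genome was taken up with earlier results of these data known. Of the 37 genes, 29 had enough counts to be tested; 8 tRNA genes did not. 1 gene passed the test across all genes, mt-Tl1, a leucine tRNA gene, and it was 2.20-fold lower in trained cord. The 2 rRNA genes and the 13 protein genes did not pass it.

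RNA came from spinal cord of C57BL/6J mice after spinal cord injury, with rotarod training (trained, 3 libraries) or without it (untrained, 3 libraries), so both groups were injured and no uninjured cord entered the comparison. The rotarod is a turning rod on which mice walk, and mice were assigned to the groups at random. The time is given as 28 days after training for all 6 libraries, the untrained ones included; age, injury level and injury method are not stated in the labels. The labels do not say whether a library came from 1 mouse, from several, or from a mouse of its own, so the p-values speak only of the spread among these 6 samples, and that spread may be technical.

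The mitochondrial genome is a small circular DNA that codes for core subunits of the respiratory chain and for the rRNAs and tRNAs of the mitochondrial ribosome's translation system. Both strands are copied from end to end into long precursor RNAs, and the tRNAs that lie between the other genes mark where these precursors are cut: RNase P cuts before a tRNA and RNase Z cuts after it. Spinal cord is rich in mitochondria because neurons and their long axons draw much of their energy from respiration.

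The tRNA genes that the results turn on are shown here as DNA, 5′ to 3′ on the strand of the gene, from GENCODE M21 transcripts on GRCm38, with the anticodon in capitals. First are the leucine pair: mt-Tl1 lies at MT 2676-2750 (plus strand, 75 bases) and mt-Tl2 at MT 11671-11741 (plus strand, 71 bases).
mt-Tl1: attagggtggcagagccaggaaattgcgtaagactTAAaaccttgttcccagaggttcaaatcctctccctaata
mt-Tl2: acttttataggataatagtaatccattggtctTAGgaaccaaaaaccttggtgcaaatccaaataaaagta
Next are 4 neighbouring genes on the minus strand between mt-Nd2 and mt-Co1, for alanine (mt-Ta, MT 5018-5086), asparagine (mt-Tn, MT 5089-5159), cysteine (mt-Tc, MT 5192-5257) and tyrosine (mt-Ty, MT 5260-5326).
mt-Ta: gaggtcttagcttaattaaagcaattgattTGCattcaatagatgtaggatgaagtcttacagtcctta
mt-Tn: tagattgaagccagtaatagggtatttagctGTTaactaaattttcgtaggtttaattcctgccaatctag
mt-Tc: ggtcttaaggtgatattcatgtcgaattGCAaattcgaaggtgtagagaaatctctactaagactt
mt-Ty: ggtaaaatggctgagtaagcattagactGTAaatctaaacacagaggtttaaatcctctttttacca
These were the 6 mitochondrial genes of smallest unadjusted p. An anticodon was located in 20 of the 22 tRNA genes, as the expected letters in a 7-base loop next to a stem of 5 bases, of which all 5 paired in 18 genes and 4 paired in mt-Tl1 and mt-Tt. The genes are tightly packed: mt-Tl1 lies directly between the rRNA gene mt-Rnr2 and the protein gene mt-Nd1, with 0 bases on either side, and 32 bases separate mt-Tn from mt-Tc. The 22 tRNA genes are 59 to 75 bases long, so each is shorter than a 150-base read, and the labels do not say how a read across 2 genes was counted.

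The libraries held 15814104 to 26092014 counts in the trained group and 15947347 to 18081949 in the untrained group. Markers of neurons, oligodendrocytes, astrocytes and microglia were present in all 6 libraries, and neuron markers summed to 2582 to 3104 CPM in trained cord and 2776 to 3068 CPM in untrained cord (CPM is counts per 1000000 after TMM scaling). Of the 16909 genes tested with edgeR's quasi-likelihood test, 10 had a Benjamini-Hochberg adjusted p below 0.05, which is 0.0591% of the genes tested. In bulk tissue, fewer cells of a type and less RNA per cell cannot be told apart. The use of strand in counting is not given, so reads of a gene and of RNA from the opposite strand cannot be told apart either.

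Mitochondrial genes as a whole took 5.26%, 5.87% and 5.17% of all counts in the 3 trained libraries, against 5.48%, 5.06% and 5.28% in the 3 untrained libraries. The groups overlapped, with means of 5.44% ± 0.383 in trained cord and 5.28% ± 0.210 in untrained cord (SD, n = 3 each). Protein genes, which made up nearly all of this, took 4.88%, 5.43% and 4.81% in trained cord and 5.10%, 4.65% and 4.88% in untrained cord. The rRNA genes took 0.365%, 0.432% and 0.340% in trained cord and 0.361%, 0.386% and 0.384% in untrained cord. Both kinds overlapped between groups.

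For the tRNA genes the groups did not overlap. They took 0.0134%, 0.0145% and 0.0149% of counts in trained cord, against 0.0193%, 0.0257% and 0.0190% in untrained cord. All 3 trained libraries lay below all 3 untrained libraries, and the mean was 0.669 times as high in trained cord (0.0143% ± 0.000744) as in untrained cord (0.0213% ± 0.00376). Set against the protein genes of the same libraries, there were 2.75, 2.68 and 3.09 tRNA counts per 1000 mRNA counts in trained cord and 3.79, 5.52 and 3.89 in untrained cord, again with no overlap. Untrained replicate 2 was the highest on both scales, and the groups stay apart when it is set aside. These shares rest on few reads, 2349 to 3505 tRNA counts in a trained library and 3027 to 4302 in an untrained one, and no test was run on them. A few genes weigh most in these sums. The proline tRNA gene mt-Tp alone had 865 to 1334 counts in a trained library and 1009 to 1759 in an untrained one.

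**Figure D1:**
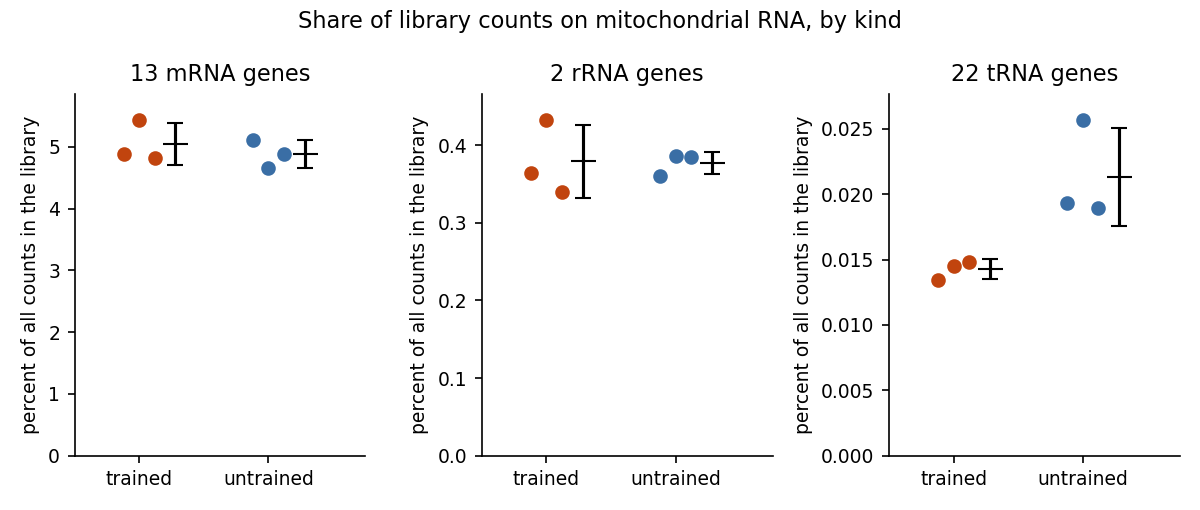
Percent of all counts of a library that fell on the 13 mRNA genes, the 2 rRNA genes and the 22 tRNA genes of the mitochondrial genome, for 3 trained and 3 untrained libraries (points; bar, mean ± SD). The groups overlap for mRNA and rRNA, while for tRNA the 3 trained libraries (0.0134 to 0.0149%) all sit below the 3 untrained ones (0.0190 to 0.0257%).

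The comparison of trained with untrained cord asked which mitochondrial genes differed with rotarod training. mt-Tl1 encodes the leucine tRNA that reads UUA and UUG codons; in human, changes in this gene are a leading cause of the mitochondrial disease MELAS, and the gene holds the binding site of the termination factor MTERF1. It stood at 6.43, 7.53 and 7.39 CPM in trained cord, against 14.9, 15.5 and 16.4 CPM in untrained cord. The highest trained library was thus well under the lowest untrained one. The counts behind these values were 166, 122 and 119 in trained cord and 272, 258 and 257 in untrained cord. mt-Tl1 fell in trained cord, with a mean of 7.12 ± 0.601 CPM against 15.6 ± 0.787 CPM in untrained cord (SD, n = 3 each), and a log2 fold change of -1.14 ± 0.13 (SE; edgeR quasi-likelihood test, adjusted p = 0.00504). It passed the threshold under all 16 alternative settings tried, with adjusted p-values of 1.22e-09 to 0.0420.

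The genes on either side of mt-Tl1 belong to the same precursor RNA and did not pass the test. mt-Rnr2, the large rRNA, had 2132, 2503 and 1896 CPM in trained cord and 2184, 2394 and 2410 CPM in untrained cord, a log2 fold change of -0.098 ± 0.10 (SE). mt-Nd1, a complex I subunit, had 6100, 6607 and 5731 CPM in trained cord and 6336, 6717 and 6222 CPM in untrained cord, a log2 fold change of -0.064 ± 0.09 (SE). Both neighbours overlapped between the groups, which mt-Tl1 between them did not. Per 1000 counts of these 2 neighbours, mt-Tl1 had 0.781, 0.827 and 0.968 counts in trained cord and 1.74, 1.70 and 1.90 in untrained cord. The ratio was 2.08-fold lower in trained cord, a log2 difference of -1.06. It is given as a description, because mt-Tl1 was already apart and an exact permutation test of 3 against 3 libraries cannot go below p = 0.1.

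**Figure D2:**
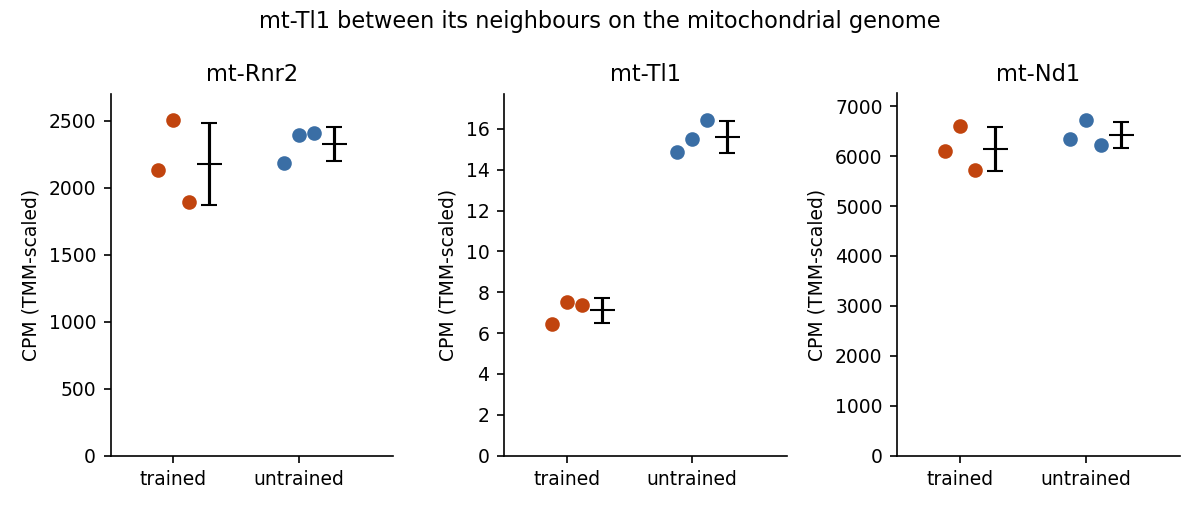
CPM of mt-Rnr2, mt-Tl1 and mt-Nd1, which lie next to each other in this order, in 3 trained and 3 untrained libraries (points; bar, mean ± SD; each panel has its own axis from 0). The trained libraries sit at 6.43 to 7.53 CPM and the untrained at 14.9 to 16.4 CPM for mt-Tl1, while the groups overlap for both neighbours.

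Of the 22 tRNA genes, 14 were tested and 1 of them, mt-Tl1, passed. At an unadjusted p below 0.05, 8 of the 14 were lower in trained cord and 0 were higher, where 5.55% of all genes tested were lower and 10.0% differed in either direction at that level. In 8 of the 14, every trained library lay below every untrained library, where 8.69% of all genes tested did so. The median log2 fold change of the 14 was -0.51, with a range of -1.69 to 0.16, and that of all genes tested was -0.0080. The 14 are those that passed a filter on low counts, and the tRNA genes share precursor RNAs, so they are not 14 separate observations.

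**Figure D3:**
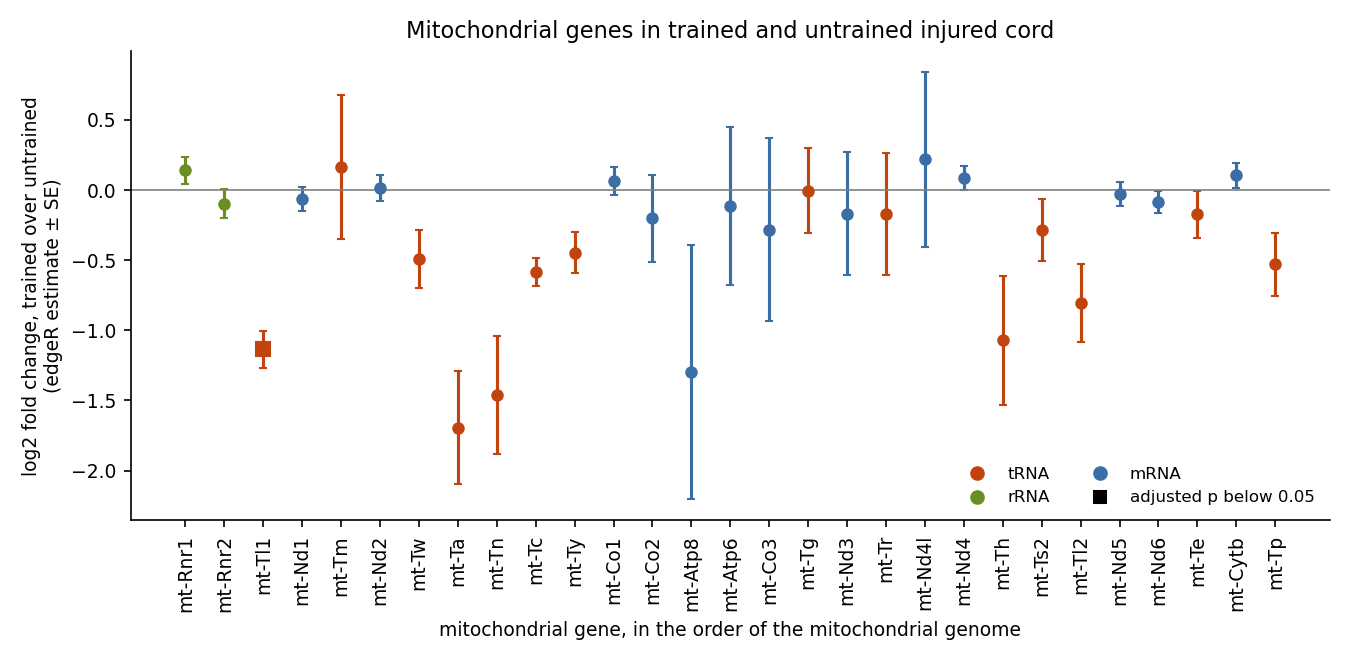
Log2 fold change, trained over untrained (edgeR estimate, bar ± SE), of the 29 mitochondrial genes tested, in the order of the mitochondrial genome, coloured by kind of RNA, with the adjusted p below 0.05 as a square. 13 of the 14 tRNA points lie below 0, at up to -1.69, and the mRNA genes with short error bars (mt-Nd1, mt-Nd2, mt-Nd4, mt-Nd5, mt-Nd6, mt-Co1 and mt-Cytb) lie between -0.086 and 0.10.

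The tRNA genes between mt-Nd2 and mt-Co1, in the order W, A, N, C and Y, were all lower at an unadjusted p below 0.05 and all had groups that did not overlap, although none of the 5 passed the adjusted threshold. mt-Tc, the cysteine tRNA, had 21.7, 24.2 and 22.9 CPM in trained cord and 31.2, 38.2 and 33.5 CPM in untrained cord, a log2 fold change of -0.58 ± 0.10 (SE; edgeR adjusted p = 0.0685). Among these 5 it had the smallest p, and its call depended on the method: DESeq2, with an adjusted p of 0.00259, and the fit with no filter on low counts, with 2.66e-05, placed it below 0.05. mt-Ty, the tyrosine tRNA, had 7.55, 6.67 and 6.70 CPM in trained cord and 9.61, 9.07 and 9.90 CPM in untrained cord, a log2 fold change of -0.45 ± 0.15 (SE; edgeR adjusted p = 0.346). mt-Tw, the tryptophan tRNA and the only one of these 5 on the plus strand, had 2.98, 3.34 and 4.22 CPM in trained cord and 4.75, 4.99 and 4.98 CPM in untrained cord. Its log2 fold change was -0.49 ± 0.21 (SE).

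The other 2 genes of this cluster had larger fold changes and larger errors. mt-Ta, the alanine tRNA, had 0.503, 0.556 and 0.621 CPM in trained cord and 2.35, 0.961 and 2.11 CPM in untrained cord, from only 9 to 13 counts in a trained library and 16 to 43 in an untrained one. Its log2 fold change was -1.69 ± 0.41 (SE; edgeR adjusted p = 0.217, and 0.0106 with no filter on low counts). mt-Tn, the asparagine tRNA, had 6.66, 8.21 and 8.25 CPM in trained cord and 12.2, 33.6 and 17.6 CPM in untrained cord. Its log2 fold change was -1.46 ± 0.42 (SE; edgeR adjusted p = 0.394). Untrained replicate 2 stood well above the other two untrained libraries in mt-Tn, while in mt-Ta it was the lowest of them.

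A second cluster, H, S2 and L2, lies between mt-Nd4 and mt-Nd5. mt-Tl2, the other leucine tRNA, which reads CUN codons, had 4.26, 4.39 and 4.72 CPM in trained cord and 4.70, 11.4 and 7.35 CPM in untrained cord. The groups touched, since the lowest untrained library fell just under the highest trained one, and the log2 fold change was -0.81 ± 0.28 (SE; edgeR adjusted p = 0.373, and 0.0205 with no filter on low counts). mt-Th, the histidine tRNA, had 1.28, 1.61 and 1.55 CPM in trained cord and 1.53, 5.65 and 2.11 CPM in untrained cord. It overlapped between groups, with a log2 fold change of -1.07 ± 0.46 (SE). mt-Ts2, a serine tRNA, had 2.79, 2.78 and 2.73 CPM in trained cord and 2.89, 3.78 and 3.45 CPM in untrained cord, which do not overlap, but its log2 fold change of -0.28 ± 0.22 (SE) had an unadjusted p above 0.05. The difference between the 2 leucine tRNAs was not tested.

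mt-Tp, the proline tRNA at the end of the gene order, had the highest level per length of the tRNA genes, 983 CPM per kb over all 6 libraries, followed by mt-Tc at 434 and mt-Te at 398 CPM per kb. mt-Tp had 51.7, 53.4 and 56.6 CPM in trained cord and 63.2, 106 and 64.5 CPM in untrained cord. These groups do not overlap, yet its log2 fold change of -0.53 ± 0.22 (SE) had an unadjusted p above 0.05 as well. Untrained replicate 2 was the highest of the 6 libraries in mt-Tn, mt-Th, mt-Tl2 and mt-Tp, and without it the median log2 fold change of the 14 tRNA genes was -0.38. Without that library the log2 fold changes of these 4 genes were -0.95 for mt-Tn, -0.30 for mt-Th, -0.43 for mt-Tl2 and -0.25 for mt-Tp. In that fit mt-Th, mt-Tl2 and mt-Tw no longer had an unadjusted p below 0.05. mt-Tp and mt-Te then did (edgeR unadjusted p = 0.0095 and 0.033), so 7 tRNA genes were lower at that level, against 8. Among the tested tRNA genes, that library was also the highest in mt-Tc, mt-Ts2, mt-Tm and, by a small margin, mt-Tw.

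In 4 tested tRNA genes the groups overlapped and the unadjusted p was above 0.05. mt-Te, the glutamate tRNA, had 25.7, 28.4 and 23.4 CPM in trained cord and 36.9, 22.5 and 27.9 CPM in untrained cord. The glycine tRNA mt-Tg and the arginine tRNA mt-Tr, which flank mt-Nd3, had log2 fold changes of -0.0042 ± 0.30 and -0.17 ± 0.43 (SE). mt-Tm, for methionine, was the 1 tested tRNA gene with a fold change above 0, at 0.16 ± 0.51 (SE), and 5 to 15 counts in a library.

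The remaining 8 tRNA genes were too low to be tested in the main fit. mt-Tf and mt-Td, for phenylalanine and aspartate, had 0 counts in all 6 libraries, which allows up to 0.116 to 0.192 CPM, or 3 counts, in a library by counting error alone. mt-Tk had 1 count in all, in an untrained library, and mt-Ts1 had 1 count in each group. mt-Tv had 1, 2 and 1 counts in trained cord and 3, 1 and 1 counts in untrained cord. mt-Tt had 0, 1 and 1 counts in trained cord and 0, 6 and 8 counts in untrained cord. mt-Tq had 6, 3 and 7 counts in trained cord and 4, 9 and 1 counts in untrained cord, while mt-Ti had 7, 7 and 4 counts in trained cord and 5, 26 and 2 counts in untrained cord. Counts this low leave little room to detect a difference. mt-Td, mt-Ts1 and mt-Tk lie among protein genes with near-identical copies on chromosome 1, given below. Whether their reads were split or left out for that reason was not tested. The edgeR fit with no filter on low counts left out only the 2 tRNA genes with no count. In it, 10 tRNA genes were lower at an unadjusted p below 0.05. Not all of these 10 were among the 14 tested in the main fit. The share of all genes at that level in this fit is not given here. Of all genes, 276 were below an adjusted p of 0.05 in it, against 10 in the main fit. The 4 below an adjusted p of 0.05 in that fit, mt-Tl1, mt-Ta, mt-Tc and mt-Tl2, were among the 14.

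**Figure D4:**
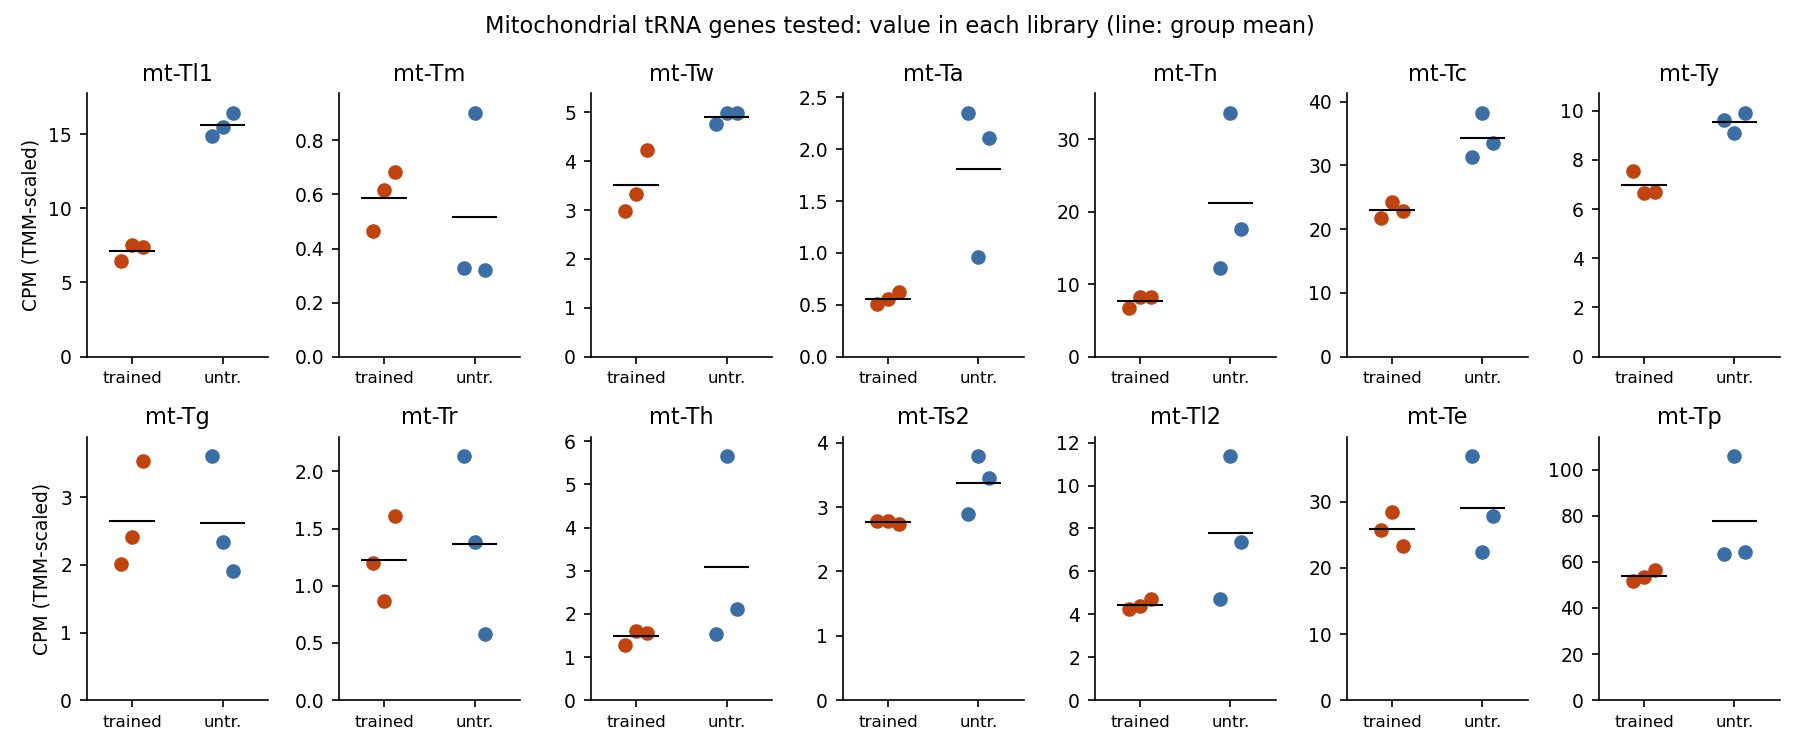
CPM of the 14 mitochondrial tRNA genes tested, 1 panel a gene in genome order, each with its own axis from 0, for 3 trained and 3 untrained libraries (points; line, group mean). The trained points lie below all untrained points in 8 panels, and 1 untrained library stands high in mt-Tn, mt-Th, mt-Tl2 and mt-Tp.

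The rRNAs of the mitochondrial ribosome did not pass the test in either direction. mt-Rnr1, the small subunit rRNA, had 1554, 1835 and 1445 CPM in trained cord and 1382, 1499 and 1506 CPM in untrained cord, a log2 fold change of 0.14 ± 0.10 (SE). mt-Rnr1 and mt-Rnr2 are separated by the valine tRNA mt-Tv, and their fold changes lay on opposite sides of 0.

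None of the 13 mRNA genes passed the test, none had an unadjusted p below 0.05, and all 13 overlapped between the groups. Of the 16909 genes tested, 0.0591% passed, 10.0% had an unadjusted p below 0.05, and 14066 overlapped between the groups. The median log2 fold change of the 13 mRNA genes was -0.064. Complex III has a single mitochondrially encoded subunit, cytochrome b; its gene mt-Cytb had 9315, 10420 and 9228 CPM in trained cord and 9297, 8636 and 9000 CPM in untrained cord, a log2 fold change of 0.10 ± 0.09 (SE). mt-Co1, the catalytic subunit of cytochrome c oxidase (complex IV), had 18807, 21009 and 17824 CPM in trained cord and 19046, 16627 and 19339 CPM in untrained cord, a log2 fold change of 0.067 ± 0.10 (SE). Among the subunits of complex I, which takes electrons from NADH, mt-Nd2, mt-Nd4, mt-Nd5 and mt-Nd6 had log2 fold changes of 0.013 ± 0.09, 0.089 ± 0.09, -0.027 ± 0.09 and -0.086 ± 0.08 (SE). mt-Nd6 is the only protein gene on the minus strand, and it stood at 1340, 1476 and 1342 CPM in trained cord and 1467, 1506 and 1438 CPM in untrained cord.

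Levels per length fell into separate ranges. mt-Co1 was the highest at 12152 CPM per kb over all 6 libraries, then mt-Cytb at 8143, mt-Nd1 at 6568, mt-Nd2 at 4068 and mt-Nd4 at 3219 CPM per kb. The ATP synthase gene mt-Atp6, and mt-Co2, mt-Nd3, mt-Co3 and mt-Nd4l, lay between 115 and 262 CPM per kb, and mt-Atp8 at 16.3 CPM per kb. These 6 low genes are consecutive protein genes of the mitochondrial genome, and 5 of them have near-identical copies on chromosome 1. On GRCm38, 7 annotated pseudogenes between positions 24611535 and 24616197 of that chromosome are over 99% identical to mitochondrial genes. The copies cover over 90% of mt-Co2 (copy Gm28661), mt-Atp6 (Gm10925), mt-Co3 (Gm28437), mt-Nd3 (Gm28438) and mt-Nd4l (Gm10222), 63.6% of mt-Nd4 (Gm28439) and 31.3% of mt-Co1 (Gm29216). For mt-Atp8 the shared stretch was 21.1% of the gene, its overlap of 43 bases with mt-Atp6; 233 bases lie between the copies of mt-Atp6 and mt-Co2, and their sequence was not analysed here.

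The 5 genes over 90% covered by a copy varied more between libraries than those with none. Their highest library was 1.98 to 4.24 times their lowest, against 1.12 to 1.33 times for the 7 mRNA and rRNA genes with no such copy, which lay at 1424 to 8143 CPM per kb. mt-Atp6, an ATP synthase subunit, had 186, 62.4 and 265 CPM in trained cord and 193, 186 and 176 CPM in untrained cord. mt-Co3, a complex IV subunit, had 56.7, 143 and 61.2 CPM in trained cord and 52.2, 90.5 and 174 CPM in untrained cord. Trained replicate 2 was the lowest of the 6 libraries in mt-Atp6 and stood high in mt-Co3, and the groups overlapped in both genes. mt-Atp8 had the widest spread, with 3.10, 0.432 and 2.11 CPM in trained cord and 2.51, 9.55 and 2.30 CPM in untrained cord, a log2 fold change of -1.30 ± 0.91 (SE).

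The 7 copies together had 6039, 3955 and 3355 counts in trained cord and 4196, 3886 and 3383 counts in untrained cord. Reads that match both places can be split or left out, and how the authors treated them is not given, so the values of these mitochondrial genes are uncertain. The tRNA genes mt-Ts1, mt-Td, mt-Tk, mt-Tg and mt-Tr lie between mt-Co1 and mt-Nd4l, among these genes. The search for copies used annotated transcripts only, so the stretches between the copies were not read. Whether counts of these tRNA genes were affected was not tested. With the counts of each copy added to its gene, a setting chosen after the data were seen, none of the 13 mRNA genes passed the test, and mt-Co2, mt-Atp6, mt-Co3, mt-Nd3 and mt-Nd4l had log2 fold changes of -0.15, -0.089, -0.22, -0.18 and 0.17. The part of the copies in the low levels was not tested.

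**Figure D5:**
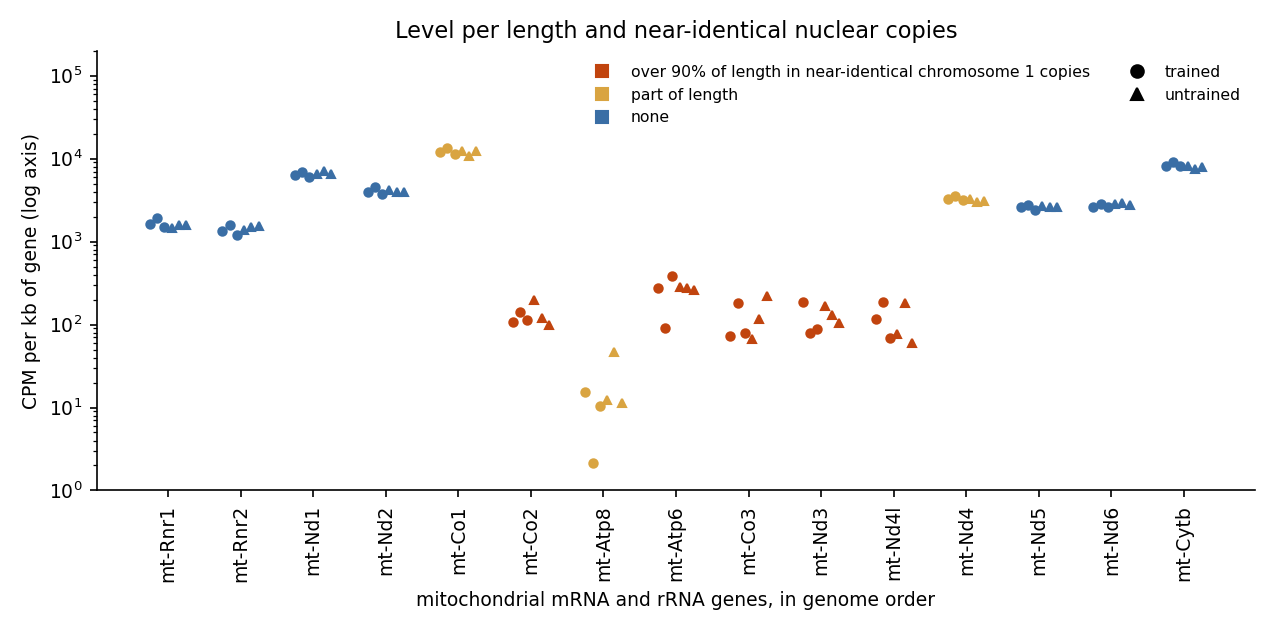
CPM per kb of gene, on a log axis, of the 13 mRNA and 2 rRNA genes in genome order, for trained (circles) and untrained (triangles) libraries, coloured by how much of the gene has a near-identical copy on chromosome 1. The 5 genes over 90% covered by copies have means of 115 to 262 CPM per kb and scatter between libraries, while the 7 with none lie at 1424 to 8143 CPM per kb.

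The ends of the protein genes show how closely they depend on processing. By sequence, 10 of the 13 end in a full stop codon, while mt-Co3, mt-Nd4 and mt-Cytb end in a single T after the last full codon, where the stop is completed by the poly(A) tail added after cutting. Neighbours overlap by 43 bases (mt-Atp8 and mt-Atp6), 7 bases (mt-Nd4l and mt-Nd4) and, on opposite strands, 14 bases (mt-Nd5 and mt-Nd6), so reads there cannot be assigned to 1 gene in full.

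Of 34 listed nuclear genes, all of them tested, 0 passed, where 0.0591% of all genes tested did. The list holds genes that make, cut and degrade mitochondrial RNA, and 5 that serve the replication of mitochondrial DNA. The median log2 fold change of the 34 was 0.0066, and that of the 5 replication genes was 0.072. At an unadjusted p below 0.05, 1 of the 34 was lower and 0 were higher, where 5.55% of all genes tested were lower and 10.0% differed in either direction. Of the 10 transcription genes, Polrmt, the mitochondrial RNA polymerase, had 33.1, 32.7 and 32.4 CPM in trained cord and 36.7, 32.3 and 32.7 CPM in untrained cord (log2 fold change -0.049 ± 0.08, SE). Tfam, which packs mitochondrial DNA and starts transcription, had 41.3, 41.3 and 41.6 CPM in trained cord and 36.4, 40.1 and 40.7 CPM in untrained cord, a log2 fold change of 0.084 ± 0.08 (SE). The mouse pair of termination factor genes, Mterf1a and Mterf1b, close paralogs between which reads may be split, had log2 fold changes of -0.32 ± 0.28 and -0.10 ± 0.39 (SE).

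The 5 genes that free a tRNA from its precursor and finish its ends had a median log2 fold change of 0.11. Elac2, which is RNase Z, had 34.4, 33.5 and 29.5 CPM in trained cord and 30.6, 25.8 and 33.9 CPM in untrained cord, overlapping. The RNase P subunit genes Trmt10c, Hsd17b10 and Prorp (listed under its older symbol 1110008L16Rik) had log2 fold changes of 0.23 ± 0.17, 0.13 ± 0.09 and -0.023 ± 0.19 (SE). Trnt1, which adds the CCA end to tRNAs, had a log2 fold change of 0.039 ± 0.08 (SE).

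Of the 14 genes of RNA stability and decay, Slirp, an RNA-binding partner of Lrpprc that holds mitochondrial mRNAs stable, had the smallest p. It had 0.542, 0.309 and 0.683 CPM in trained cord and 0.546, 2.52 and 0.831 CPM in untrained cord, so a single untrained library stood apart and the groups overlapped (log2 fold change -1.32 ± 0.58, SE; edgeR adjusted p = 0.485). Mtpap, the poly(A) polymerase of mitochondria, had a log2 fold change of -0.20 ± 0.11 (SE; edgeR adjusted p = 0.550). Pde12, which removes such tails, had 0.17 ± 0.10 (SE; edgeR adjusted p = 0.591).

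The synthetase list holds the enzymes that charge mitochondrial tRNAs with amino acids and the amidotransferase subunits for glutamine. Of its 22 genes, 0 passed the test, where 0.0591% of all genes tested did. Likewise 0 had an unadjusted p below 0.05, a level that 10.0% of all genes tested reached. The median log2 fold change of the list was 0.0062. Iars2, Hars2 and Pars2, for isoleucine, histidine and proline, had the smallest p-values, with log2 fold changes of -0.13 ± 0.08, -0.17 ± 0.10 and 0.29 ± 0.18 (SE; edgeR adjusted p = 0.581, 0.588 and 0.631). Lars2, the enzyme for both leucine tRNAs, had 165, 241 and 302 CPM in trained cord and 162, 278 and 276 CPM in untrained cord. It varied 1.87-fold between libraries with no difference between groups past the test (log2 fold change -0.018 ± 0.34, SE; edgeR adjusted p = 0.993).

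Markers of other cell types were set beside the tRNA values. Endothelial markers summed to 223 to 256 CPM in trained cord and 264 to 319 CPM in untrained cord, so they were apart in the same direction as the tRNA share. None of the 3 endothelial markers passed the test or was at 0, and their part in the tRNA result was not tested. The summed markers of the other 8 listed types, neurons, motor neurons, oligodendrocytes, astrocytes, microglia, Schwann cells, skeletal muscle and red blood cells, overlapped between the groups. Single markers within these lists, named after their values were seen, did not overlap: the microglial Cx3cr1 averaged 108 ± 16.3 CPM in trained cord and 134 ± 6.72 CPM in untrained cord (SD, n = 3 each), and the astrocytic Slc1a3 averaged 120 CPM in trained cord and 136 CPM in untrained cord, a log2 fold change of -0.18 ± 0.07 (SE). Mbp of oligodendrocytes, Hba-a1 of red blood cells and Tnnt3 of muscle lay higher in all trained libraries than in all untrained ones. None of these 5 passed the test (edgeR adjusted p = 0.323 for Cx3cr1, 0.380 for Slc1a3, 0.537 for Mbp, 0.515 for Hba-a1 and 0.443 for Tnnt3), and their part in the tRNA values was not tested. Of the 16909 genes tested, 1469 lay lower in every trained library than in every untrained one, and 1374 lay higher. Schwann cell markers summed to 126 to 1247 CPM in trained cord and 738 to 1136 CPM in untrained cord.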

How the data were processed

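RNA of injured spinal cord, in 3 trained and 3 untrained libraries, was sequenced as 150-base paired-end reads, per the labels' protocols. The authors deposited the reads as whole-number counts for each Ensembl gene, not normalized, with coordinates, lengths and biotypes. Bowtie 0.12.2, mm8 and mm9 appear in the submitters' processing notes, which assign them no step. Not given in the sources used here are the counter, annotation release, use of strand, treatment of reads with several matches, and any selection of RNA for the libraries. Chromosome, start and end matched GENCODE M21 (GRCm38) for 53499 of 54532 genes (98.1%), among them all 37 mitochondrial genes, and positions are given as the table prints them.

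A robust quasi-likelihood fit in edgeR 4.0.16 (R 4.3.3) tested the counts after TMM scaling, with group as the single covariate and 16909 genes left by filterByExpr. P-values were adjusted by Benjamini-Hochberg over all of them, with a threshold of 0.05; the standard error is the size of the log2 fold change over the square root of F. The procedure was tested on simulated data. Limits for genes with 0 counts use 3 counts and cover counting error only. Copies were sought with blastn 2.17.0 (e-value 1e-06) against GENCODE M21 transcripts outside MT. Alternatives were RLE and upper-quartile scaling, library sizes without mitochondrial genes, scaling to mitochondrial mRNA, DESeq2 1.42.0, limma-voom 3.58.1, other filters, a replicate block, copies added, and leaving out each library.

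The mitochondrial genome as a subject, the gene lists and the tests were chosen with earlier results of these data known, although membership itself follows from position alone. Full statistics were given for mitochondrial genes past the test and the 6 of smallest p, for the 3 of smallest p in each nuclear list, and for Lars2, Polrmt and Tfam; other genes are named with their values as members of their list. A permutation test planned for the shares of counts is not given, because a p for a score over the members is not reported.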

Additional observations from a re-analysis of the deposited data

How the results depend on the processing

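The fall of mt-Tl1 kept its direction and its side of the threshold in all 16 alternatives, with log2 fold changes of -1.18 to -1.06. Replicate numbers are shared between the groups, but same-numbered libraries did not deviate together (correlations of -0.182, -0.0906 and -0.126). Libraries of different numbers had correlations of -0.0039 to 0.128. These values cannot settle whether the numbers pair the libraries. With a replicate block, mt-Tl1 had a log2 fold change of -1.13 (edgeR adjusted p = 0.0420), and 5 of all genes passed in place of 10. In that fit 1 mRNA or rRNA gene, mt-Nd4l, had an unadjusted p below 0.05 in place of 0.

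Counts of calls moved with the method. Of all genes, 86 passed with DESeq2 and 276 with no filter on low counts; leaving out 1 library gave 4 (without trained replicate 2) to 221 (without trained replicate 3), and 21 without trained replicate 1. Of the mitochondrial genes, 2 passed with DESeq2 (mt-Tl1 and mt-Tc), 4 with no filter (also mt-Ta and mt-Tl2), 2 at an adjusted p of 0.1, 8 at an unadjusted p of 0.05, and 1 to 2 with 1 library left out, mt-Tc being the second without trained replicate 3. The tRNA genes lower at an unadjusted p below 0.05 numbered 5 to 8 with 1 library left out, and 5 without trained replicate 1 or without trained replicate 2. The share of all genes at that level in each of these fits is not given here, so these counts have no background beside them. The mRNA and rRNA genes at that level numbered 0 to 1, mt-Nd3 without trained replicate 1 and mt-Rnr1 without trained replicate 3. With 1 library left out, the median log2 fold change was -0.57 to -0.38 for tRNA, lowest in size without untrained replicate 2, and -0.071 to 0.033 for mRNA. Between 11 and 14 tRNA genes lay below 0 in every alternative with 14 tested. The causes were not tested.

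Without untrained replicate 1 Polrmt had a log2 fold change of 0.020, and its values with 1 library left out ran from -0.084 to 0.020. Lars2 had 0.011 with upper-quartile scaling and -0.23 to 0.19 with 1 library left out. Upper-quartile scaling and the other scalings moved the median of all genes by less than 0.1 on the log2 scale. Low counts limit the tRNA genes most: 8 of 22 were too low for the main test, and the cause of this was not tested.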

Other observations

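Short genes outside the mitochondrial genome, of at most 200 bases, were set beside the tRNA genes, which are all shorter than a 150-base read. The 6776 listed genes of at most 200 bases outside MT summed to 628, 814 and 1163 CPM in trained cord and 644, 1085 and 923 CPM in untrained cord, which overlap. Most of this was 1 gene, Gm23935, a 57-base gene of the miRNA biotype on chromosome 16 (11144125 to 11144181), with 516, 690 and 1025 CPM in trained cord and 511, 943 and 802 CPM in untrained cord. Without it the sum was 112, 124 and 138 CPM in trained cord and 133, 142 and 121 CPM in untrained cord. Short snoRNA genes summed to 17.3, 16.8 and 18.3 CPM in trained cord and 18.5, 19.1 and 16.3 CPM in untrained cord; short snRNA genes overlapped likewise. All of these sums overlapped between the groups, while the mitochondrial tRNA share did not. They pool genes of other kinds and lengths, and the part of gene length in the tRNA values was not tested. These sums are CPM without TMM scaling.

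Gm23935 and Lars2, the mitochondrial leucyl-tRNA synthetase gene, put the 6 libraries in the same order, lowest in untrained replicate 1 and highest in trained replicate 3; this was seen after their values were known and was not tested.

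A transcript of the nuclear gene Cep295 resembles mt-Tl1 at 93.5% over 62 bases, and mt-Ta, mt-Tn, mt-Tc and mt-Ty at 84.1% to 91.5%. Cep295 as a whole had 347, 223 and 226 counts in trained cord and 293, 221 and 244 counts in untrained cord, which overlap, and whether reads of the tRNA genes were shared with it was not tested.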
